A study of Oryzias latipes with 20 samples.

Results

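The genes described here are those of medaka (Oryzias latipes) whose deposited protein descriptions name myelin or a proteolipid protein, measured as RNA in 20 brain samples. The choice took the gene with the symbol mpz and every gene at a mean of 10 FPKM or more whose description holds the letters "myelin" or the words "proteolipid protein", leaving out transcription factors and receptors. FPKM counts the fragments of a gene per length of its transcript and per total of the library, so levels can be set side by side between genes. This gave 16 of the 22615 genes in the table. In 10 of them the description names myelin or a proteolipid protein, and these are called the myelin-named genes. The other 6 hold the letters only inside the word sphingomyelin, a lipid, and are given apart. The rule used only descriptions and the mean over all 20 samples, with no comparison between days. It was set with earlier results of these data known.

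Each sample combined hypothalamus and pituitary with the ventral part of the telencephalon. The photoperiod was constant for all fish, and samples were taken 0, 7, 30, 60, 90, 120 and 150 days after a transition to a condition the labels abbreviate as LW without explaining it. Each day had 3 samples and day 60 had 2. No separate control group was labelled, so day 0 served as the reference, and the labels give no strain, age, sex or batch. Whether samples came from separate fish is not labelled, and p-values therefore reflect only the variation among the samples sequenced. Total FPKM per library lay between 374770 and 405678, and read depth is unknown.

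Myelin is the stack of glial membrane that wraps axons and lets impulses travel fast. In the brain it is made by oligodendrocytes and in peripheral nerves by Schwann cells. Its membranes are held together by a few very abundant proteins. Myelin basic protein joins the inner membrane faces, and proteolipid protein and protein zero join the outer faces. In mammals protein zero belongs to peripheral myelin and proteolipid protein to central myelin, whereas in bony fish protein zero is also a protein of central myelin. The RNA of these genes is commonly read as a marker of myelinating glia. In a bulk tissue sample, fewer such glia and less RNA per cell cannot be told apart.

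The structural proteins of compact myelin were among the most abundant of the myelin-named transcripts. LOC101173447, described as myelin basic protein-like, had a mean of 1175 FPKM over the 20 libraries. LOC101159204 had a mean of 655.5 FPKM, and its best protein match is uncharacterized, while other matches and the authors' orthology entry name myelin basic protein. LOC101157800, described as myelin proteolipid protein, had a mean of 468.5 FPKM and mpz, which encodes myelin protein zero (P0), one of 302.7 FPKM. In these libraries protein zero RNA thus stood at a level of the same order as proteolipid protein RNA, with a median within-library ratio of 0.627. LOC101173373, described as proteolipid protein DM beta, had a mean of 273.1 FPKM. It belongs to the proteolipid family, whose M6 members in mammals are also made by neurons.

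The other 5 myelin-named genes were lower. The gene mag encodes myelin-associated glycoprotein, an adhesion protein of the membrane layer next to the axon, and had a mean of 59.94 FPKM. The gene fam168b, whose product is described as a myelin-associated neurite-outgrowth inhibitor, had a mean of 36.92 FPKM. LOC101167473, described as protein zero-like 1, had a mean of 31.61 FPKM and is in mammals a widely expressed relative of protein zero. The gene plp2 stood at 18.83 FPKM and, despite its name, encodes a membrane protein outside the family of myelin proteolipid protein. The gene mbp, described as myelin basic protein, stood at 18.6 FPKM. In the RefSeq gene table of assembly ASM223467v1, mbp and LOC101173447 overlap on chromosome 16 and share a start, so the read assignment may have split reads between them. The share of their summed FPKM under mbp was 1.14% to 4%, with a median of 1.45%, and the values of both are uncertain for this reason.

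Just inside the minimum of 10 FPKM lay samd8 (11.1 FPKM) and smpd4 (11.92 FPKM), both sphingomyelin-named. Just outside were LOC105355636, described as oligodendrocyte-myelin glycoprotein, at 6.823 FPKM, smpd1 at 6.782 FPKM and LOC101157512, described as peripheral myelin protein 22, at 6.614 FPKM. In all, 43 myelin-named genes lay under the minimum. Among them were 21 entries described as myelin-oligodendrocyte glycoprotein, with a highest mean of 3.068 FPKM. The description put 8 genes among the transcription factors, 7 of them at 10 FPKM or more. One of these, tmem258, carries the description of its neighbour myrf and was left out by the wording alone.

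The level of mpz was 391.26, 273.42 and 356.09 FPKM on day 0 and 348.5, 299.15 and 293.02 FPKM on day 7. It was 352.88, 412.2 and 238.02 FPKM on day 30, 327.94 and 286.75 FPKM on day 60, and 336.93, 333.72 and 273.96 FPKM on day 90. On day 120 it was 416.0, 316.2 and 208.47 FPKM, and on day 150 it was 248.54, 112.0 and 228.16 FPKM. All 3 values of day 150 lay below all 3 of day 0, and 1 of them, replicate 2, lay below every other library. Day 30 replicate 3 and day 120 replicate 3 lay within the span of day 150, so day 150 did overlap with those days.

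Ordered by mean, mpz stood at 340.3 ± 60.5 FPKM on day 0 (SD, n = 3), 334.4 ± 88.6 on day 30, 314.9 ± 35.5 on day 90, 313.6 ± 104 on day 120 and 313.6 ± 30.4 on day 7. Day 60 followed with 307.3 ± 29.1 FPKM (n = 2) and day 150 with 196.2 ± 73.7 FPKM. The values of those first 6 days overlapped with each other. The step from day 60 to day 150 was the largest between neighbours in that order, and the values of those days did not overlap.

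**Figure D1:**
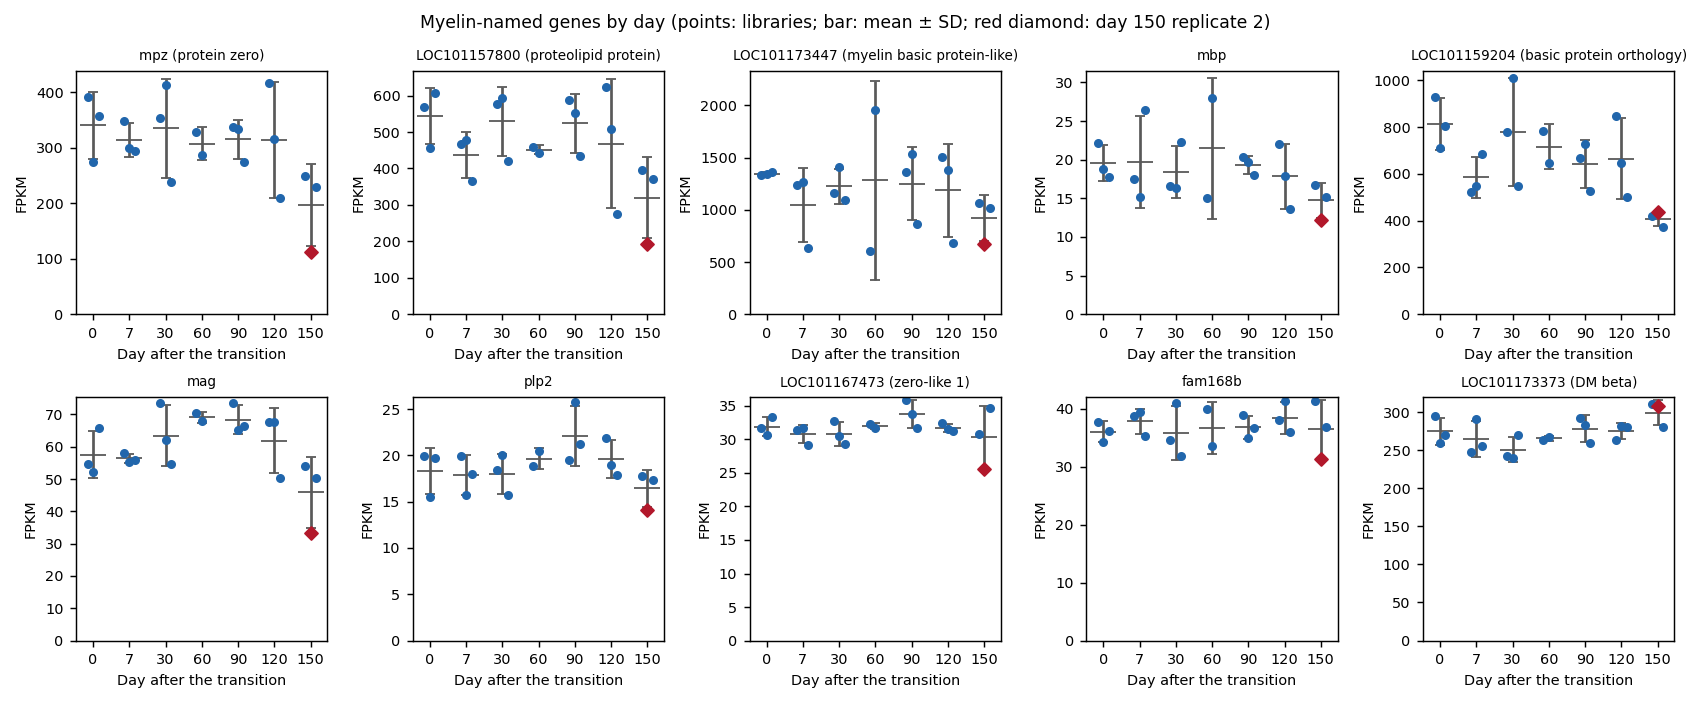
FPKM of the 10 myelin-named genes (vertical axes, linear, from 0) by day after the transition (horizontal axis); points are libraries, bars the mean ± SD of a day, and the red diamond is day 150 replicate 2. On day 150 mpz has a mean of 196.2 FPKM against 340.3 FPKM on day 0, whereas LOC101173373 stays between 240.23 and 310.35 FPKM in all 20 libraries.

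The proteolipid protein gene LOC101157800 followed nearly the same course. It stood at 568.51, 457.14 and 606.03 FPKM on day 0, at 395.56, 192.82 and 370.36 FPKM on day 150, and at 274.11 to 622.54 FPKM on the days between. The 3 values of day 150 again lay below the 3 of day 0, and replicate 2 of day 150 was again the lowest library of all. The next lowest was day 120 replicate 3, the library that was also next lowest for mpz.

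The 3 basic protein genes differed from each other. LOC101159204 stood at 928.63, 708.99 and 803.45 FPKM on day 0 and at 420.37, 435.57 and 370.97 FPKM on day 150. Its values on day 150 lay close together and below those of the other 17 libraries, of which the lowest was 499.72 FPKM in day 120 replicate 3. LOC101173447 stood at 1338.37, 1347.03 and 1358.95 FPKM on day 0 and at 1070.27, 672.3 and 1020.34 FPKM on day 150. Its widest gap was on day 60, with 607.22 FPKM in replicate 1 and 1958.48 FPKM in replicate 2, the lowest and highest of all 20 libraries. The gene mbp, which overlaps LOC101173447, stood at 22.16, 18.75 and 17.71 FPKM on day 0 and at 16.76, 12.24 and 15.22 FPKM on day 150. Both genes had all day 150 values below all day 0 values, and both were higher in replicate 2 than in replicate 1 of day 60.

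The adhesion gene mag had 54.6, 52.31 and 65.75 FPKM on day 0, 73.4, 65.11 and 66.54 FPKM on day 90 and 54.05, 33.34 and 50.31 FPKM on day 150. Days 0 and 150 overlapped. Its highest mean was on day 60 (69.1 FPKM), where both values lay above those of day 0. LOC101173373 had 294.58, 259.65 and 269.73 FPKM on day 0 and 310.35, 307.52 and 280.64 FPKM on day 150, which overlapped and were the other way round in their means. The genes plp2, LOC101167473 and fam168b ranged over 14.14 to 25.73, 25.59 to 35.82 and 31.35 to 41.45 FPKM, with days 0 and 150 overlapping in each.

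No member passed the tests between days after adjustment over all genes. The tests were limma's moderated tests on log2(FPKM + 1) with Benjamini-Hochberg adjustment over the 15947 genes whose mean reached 1 FPKM, and all 16 members were among these genes. Over the 7 days, 0 of 16 members were called, against 0.0941% of all genes tested, and over days 7 to 150 also 0, against 0.0941%. For the slope over the days 0 of 16 members were called, against 0.00627%. Against day 0, members called were 0 on day 7 (0.0627% of all genes tested), 0 on day 30 (0%), 0 on day 60 (0.00627%), 0 on day 90 (0%), 0 on day 120 (0.0314%) and 0 on day 150 (0%). These comparisons share the 3 libraries of day 0.

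At an unadjusted p under 0.05, limma's F test over the 7 days held 4 of 16 members, of which 2 were myelin-named, against 13.1% of all genes tested. The F test over days 7 to 150 likewise held 4, of which 2 were myelin-named, against 13%. The slope held 6, of which 4 were myelin-named, against 11.2%. On day 150 there were 5, of which 4 were myelin-named (LOC101159204, mpz, LOC101157800 and mag), against 9.61%. There was 1 on day 7 (LOC101159204, against 8.92%), 1 on day 30 (8.63%), 0 on day 60 (6.93%), 0 on day 90 (8.27%) and 1 on day 120 (9.46%). These counts are not of independent genes, since several members varied together from library to library and mbp overlaps LOC101173447.

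The widest differences of any myelin-named gene from day 0 were on day 150. LOC101159204 differed by −0.99 ± 0.21 on the log2 scale (standard error, limma adjusted p = 0.168), with all 3 libraries of day 150 lower. The difference was −0.86 ± 0.28 for mpz (limma adjusted p = 0.380) and −0.82 ± 0.28 for LOC101157800 (limma adjusted p = 0.392). Smaller values were those of LOC101173447 at −0.58 (limma adjusted p = 0.657), mbp at −0.39 (0.613) and mag at −0.34 (0.503). The difference was −0.15 for plp2, −0.08 for LOC101167473, 0.01 for fam168b and 0.13 for LOC101173373 (limma adjusted p = 0.628). Each of these genes differed more from day 0 on another day, plp2 by 0.26 on day 90. Of the 10 myelin-named genes, 8 had a negative change on day 150, with a median of −0.37, whereas 43.65% of all genes tested had a negative change, with a median of 0.02. In 5 of the 10, namely LOC101173447, LOC101159204, LOC101157800, mpz and mbp, day 150 lay below day 0 without overlap, and 5.17% of all genes tested did so.

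On the days from 7 to 120 the myelin-named genes had medians close to those of all genes. Their median log2 change was −0.05 on day 7, −0.05 on day 30, −0.02 on day 60, 0.01 on day 90 and −0.08 on day 120. The medians of all genes tested on those days lay between 0.00 and 0.02. Of the 10 genes, 9 had a negative change on day 7 (49.36% of all genes tested) and 9 on day 30 (46.33%). Negative changes numbered 5 on day 60 (48.25%), 5 on day 90 (46.01%) and 6 on day 120 (44.87%). A majority of negative signs was thus not particular to day 150. Without overlap, LOC101173447 and LOC101159204 lay below day 0 on day 7, 2 of the 10 genes against 8.24% of all genes tested. The gene mag lay above day 0 on day 60, 1 of 10 against 13.2%. No myelin-named gene lay below day 0 without overlap on day 30 (6.38% of all genes tested), day 60 (11.5%), day 90 (6.08%) or day 120 (6.08%). None lay above it on day 7 (8.16%), day 30 (9.39%), day 90 (8.46%), day 120 (9.12%) or day 150 (9.33%).

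Along the days, LOC101159204 had a slope of −0.12 on the log2 scale per 30 days (standard error 0.04, limma adjusted p = 0.281). The slope of mpz was −0.11 (limma adjusted p = 0.337) and that of LOC101157800 −0.10 (0.412), while LOC101173373 had a positive slope of 0.03 (0.357). The median slope of the 10 genes was −0.04, with 7 negative, and that of all genes tested was 0.005, with 42.85% negative. The means of mpz over days 0 to 120 stayed between 307.3 and 340.3 FPKM, and its mean on day 150 was 196.2 FPKM.

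Replicate 2 of day 150 was marked out together with the choice of genes, with earlier results of these data known. It stood apart for several members, and its values are given separately here. It was the lowest of the 20 libraries for 7 of the 10 myelin-named genes and for 9 of the 16 members. For mpz it held 112.0 FPKM, where the other 19 libraries held 208.47 to 416.0 FPKM, a ratio of 0.354 to their median. For LOC101157800 the ratio was 0.412 and for mag 0.537. Counted from the lowest, it ranked 3 for LOC101173447 and LOC101159204 and 19 for LOC101173373. Over all genes tested, 10.88% were lowest in this library and 12.73% highest, and the number of genes lowest in a library ran from 464 to 1735, this library having the most. The myelin-named genes together made up 0.453% of its total FPKM, against a median of 0.816% over the libraries, a highest share of 0.985% and a next lowest share of 0.52% in day 120 replicate 3.

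Without that library the mean of mpz on day 150 was 238.3 FPKM (n = 2) and its log2 change against day 0 was −0.50 (limma adjusted p = 0.806). That of LOC101157800 was −0.50 (0.814), of LOC101173447 −0.37 (0.924) and of mag −0.13 (0.904). Those of plp2, LOC101167473 and fam168b were −0.05, 0.04 and 0.11, so that LOC101167473 turned in sign. The values of these 7 genes thus moved by over 1.5 times with 1 library, whereas mbp was at −0.27 and LOC101173373 at 0.11. LOC101159204 kept a log2 change of −1.03 (limma adjusted p = 0.422), since this library was the highest of the 3 on day 150 for that gene. The counts moved as well. At an unadjusted p under 0.05, limma then held 2 of 16 members on day 150, of which 1 was myelin-named, against 6.22% of all genes tested. For the slope it held 3, of which 1 was myelin-named, against 9.06%, and over the 7 days 2, against 12.1%. The median log2 change of the 10 myelin-named genes on day 150 was −0.20 without the library, with 7 negative. The same 5 genes lay below day 0 without overlap, which leaving a library out cannot undo, and 8.79% of all genes tested now did so. The slope of mpz was −0.06 (limma adjusted p = 0.601) and that of LOC101157800 −0.05 (0.709), both moved by over 1.5 times, while LOC101159204 had −0.11 (0.466). The median slope was −0.01, with 5 of 10 negative.

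The pituitary was part of the tissue, and 1 of its marker genes, pomc, was far higher in the same library than in any other. Of 9 pituitary marker genes found by symbol, 8 were tested, and all 8 had a positive log2 change on day 150, with a median of 0.67 and 0 called. Their summed level was 795.2 to 2256 FPKM on day 0 and 2597 to 4959 FPKM on day 150, replicate 2 being the highest of all 20 libraries. Most of that sum was pomc, the precursor gene of corticotropin and melanotropin, at 4420.34 FPKM in replicate 2 and at most 2320.14 FPKM elsewhere. The other 7 markers did not share its extreme. Without pomc, left out after its value was seen, their sum was 538.8 FPKM in replicate 2, rank 13 from the lowest of the 20 libraries, within the 276.4 to 812 FPKM of day 150, and it was 167.8 to 258 FPKM on day 0. The gonadotropin subunit genes lhb, cga and fshb stood at 69.94, 276.54 and 138.07 FPKM in replicate 2, with up to 241.49, 658.23 and 321.71 FPKM elsewhere. The ninth marker, prl under that symbol, was near 0 with a mean of 0.278 FPKM. The library with the lowest pituitary sum, day 60 replicate 1 at 164.1 FPKM, had 327.94 FPKM of mpz, which was no extreme. The same library was the lowest of the 20 for LOC101173447 (607.22 FPKM), smpdl3a (23.99 FPKM) and smpd2 (18.08 FPKM). For LOC101161577 (64.57 FPKM) it was the highest. Across the 20 libraries the pituitary sum with pomc and mpz had r = −0.501 and rho = −0.602 (permutation adjusted p = 0.0961 and 0.025 over 12 marker lists), and r = −0.285 without the 2 libraries farthest from the median of mpz. The part of tissue composition in the day 150 values was not tested.

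**Figure D2:**
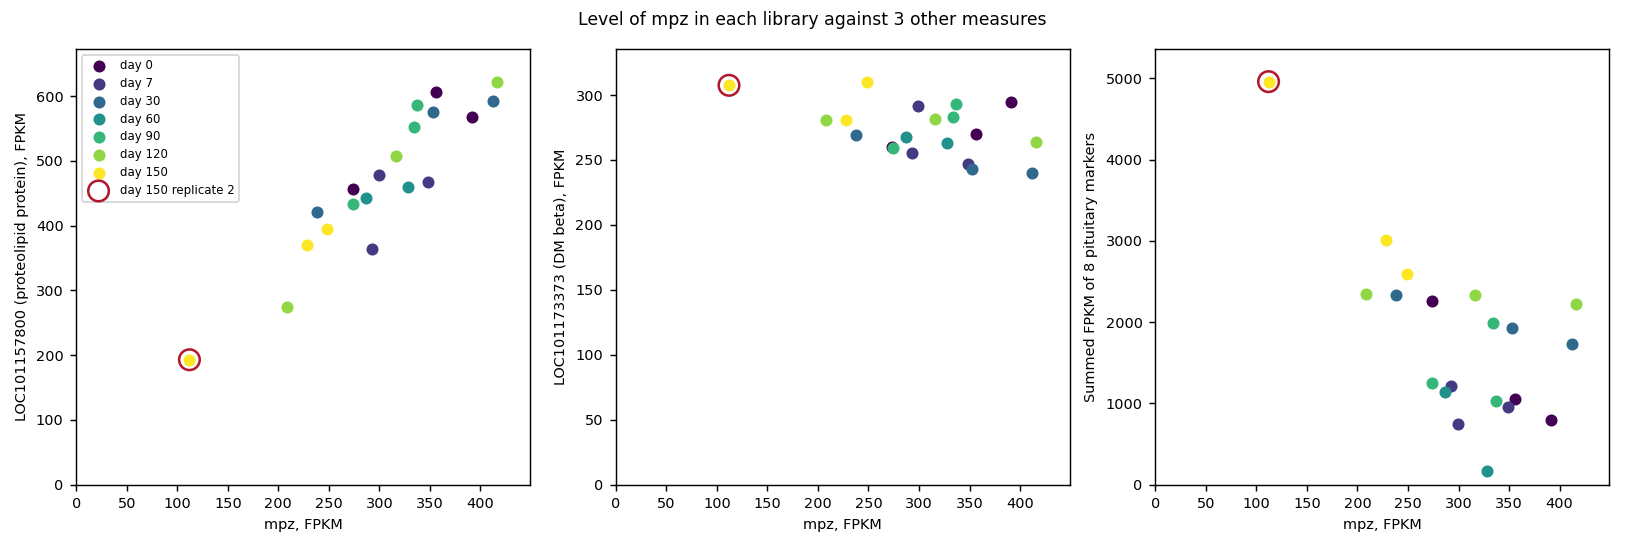
FPKM of mpz in each of the 20 libraries (horizontal axes) against LOC101157800 (left), LOC101173373 (middle) and the summed FPKM of 8 pituitary markers (right), all on linear axes from 0; colours give the day and the red ring day 150 replicate 2. The left panel is a narrow band (r = 0.943), the middle panel is nearly level, and in the right panel the ringed library lies alone at 112.0 FPKM of mpz and 4959 FPKM of pituitary markers, of which 4420.34 FPKM are pomc.

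Some myelin-named genes varied far more between libraries than most genes, and others did not. The SD of log2(FPKM + 1) over the 20 libraries was 0.473 for LOC101173447, 0.425 for mpz, 0.416 for LOC101157800 and 0.391 for LOC101159204. It was 0.287 for mbp, 0.260 for mag, 0.187 for plp2, 0.115 for fam168b, 0.105 for LOC101173373 and 0.098 for LOC101167473. The median over all genes tested was 0.167, and over the 539 genes at 100 FPKM or more it was 0.130. The 4 genes of compact myelin above 300 FPKM were thus more variable than the median gene of high level, whereas LOC101173373, at a like level, was not. Expressed as the highest over the lowest library, mpz spanned 3.71 times and LOC101173373 1.29 times.

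Several of the variable genes, though not all, moved together from library to library. Among the 45 pairs of myelin-named genes, 16 had a Pearson correlation with permutation adjusted p under 0.05, 11 a Spearman correlation and 10 both, all 10 of them positive. The strongest was between mpz and LOC101157800, with r = 0.943 and rho = 0.923 (permutation p = 1e-05 each, the smallest that 100000 resamples can give, adjusted p = 0.00045). It was r = 0.859 without day 120 replicate 3 and day 150 replicate 2, the libraries farthest from the median, and r = 0.888 over the 19 libraries without day 150 replicate 2. After subtraction of each day's mean r was 0.943, so the relation held within days. The ratio of mpz to LOC101157800 stayed between 0.566 and 0.804 in all libraries, and was 0.581 in day 150 replicate 2, where both genes were lowest. The SD of that ratio on the log2 scale was 0.143, against 0.425 and 0.416 for the genes taken singly.

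LOC101159204 and mpz had r = 0.753 and rho = 0.824 (permutation adjusted p = 0.00045 and 0.0009), and r = 0.784 without the 2 farthest libraries. LOC101159204 and LOC101157800 had r = 0.713 and rho = 0.776. The 2 most abundant members, LOC101173447 and LOC101159204, did not pass as a pair, with r = 0.369 and rho = 0.48 (permutation adjusted p = 0.144 and 0.0941). LOC101173447 was related to LOC101157800 (r = 0.685, rho = 0.707) and less closely to mpz (r = 0.543, rho = 0.558, permutation adjusted p = 0.0336 and 0.049). The pair of mpz and mag had r = 0.817 and rho = 0.605 (permutation adjusted p = 0.00198 and 0.0346), but r = 0.509 without the 2 farthest libraries, so that a good part of it rested on those libraries. After subtraction of each day's mean, r fell to 0.58 for LOC101159204 with mpz and to 0.486 for LOC101159204 with LOC101157800. For LOC101173447 it was 0.487 with mpz and 0.64 with LOC101157800, whereas mpz with mag had 0.84. The other pairs past both thresholds were LOC101157800 with mag, LOC101157800 with plp2, mpz with plp2, and mag with plp2. Over the 19 libraries without day 150 replicate 2, only 4 pairs passed both thresholds, those of LOC101157800 with mpz, LOC101159204 and LOC101173447, and that of LOC101159204 with mpz.

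Of the 10 genes, 4 had no pair past both thresholds, namely mbp, fam168b, LOC101167473 and LOC101173373. For LOC101173373 the correlation with mpz was r = −0.495 and rho = −0.311 (permutation adjusted p = 0.0632 and 0.29). The ratio of mpz to LOC101173373 ran from 0.364, in day 150 replicate 2, to 1.72, so which of the 2 RNAs was more abundant differed between libraries. The correlation of mbp with mpz was r = 0.458 and rho = 0.25 (permutation adjusted p = 0.0891 and 0.407), and r = 0.028 without the 2 farthest libraries. FPKM values are shares of a library, and all pairs share the same libraries, so these relations are relative.

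**Figure D3:**
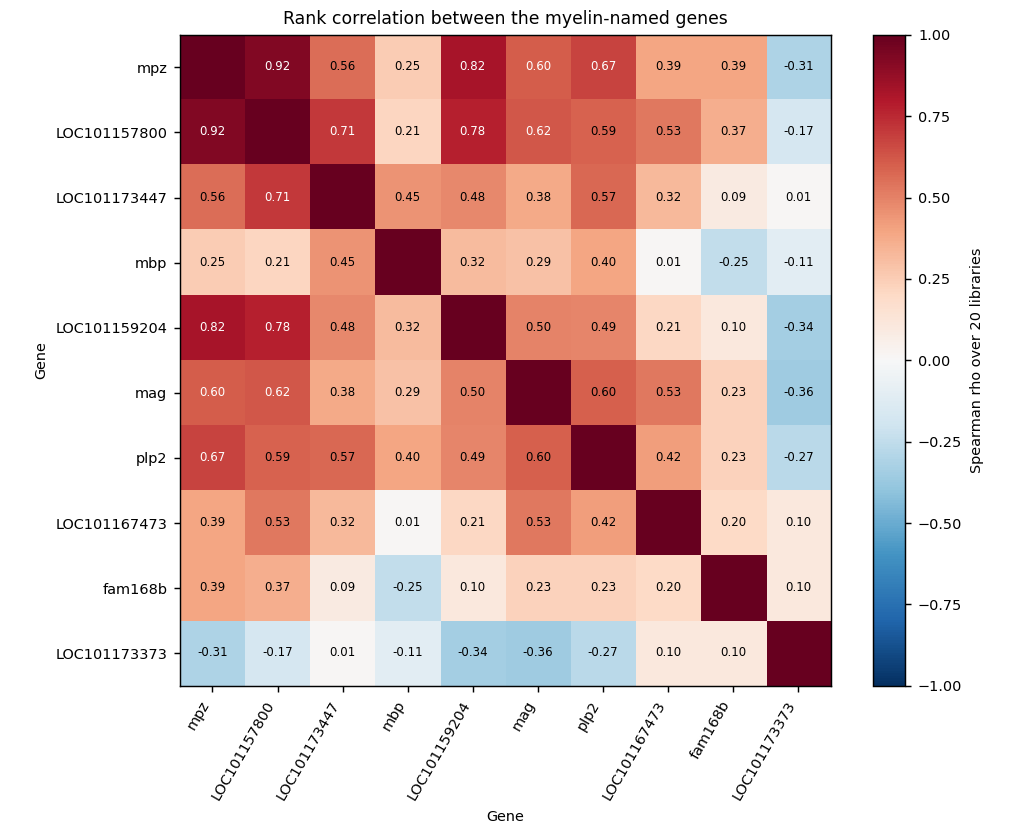
Spearman rank correlations over 20 libraries between the 10 myelin-named genes (both axes), with the value in each cell and the colour scale from −1 to 1. The darkest cells are those between mpz, LOC101157800 and LOC101159204, with rho of 0.776 to 0.923, while the last line, LOC101173373, is near or below 0 with all genes.

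Across the 7399 other genes at a mean of 10 FPKM or more, the gene most like mpz by Spearman correlation over the 20 libraries was LOC101157800, both with and without day 150 replicate 2. LOC101159204 ranked 6, plp2 28, mag 47 and LOC101173447 67. The median rho over all these genes was −0.0677, and 21 genes reached 0.7. The 10 genes outside the members with the highest rho began with LOC101156811, a hypothetical protein (0.884), arhgap23 (0.860), stk17b, a serine/threonine kinase (0.848), and the tight-junction gene cldn19 (0.847). They went on with myrf (0.820), which in mammals encodes a transcription factor needed for oligodendrocyte maturation and which the choice of members left out. Then came LOC101165395, described as claudin-4-like (0.809), LOC101175390, an elongase of very long chain fatty acids (0.779), LOC101173157 (0.762), LOC101156851 (0.750) and LOC101161344, described as a pentraxin fusion protein (0.747). In day 150 replicate 2, myrf stood at 6.96 FPKM, with 8.71 to 17.74 FPKM elsewhere, and cldn19 at 63.85 FPKM, with 75.37 to 131.84 FPKM elsewhere. Both genes were picked by likeness to mpz over libraries that include this one, so low values there follow in part from the choice. The ranking is a description of 20 libraries.

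**Figure D4:**
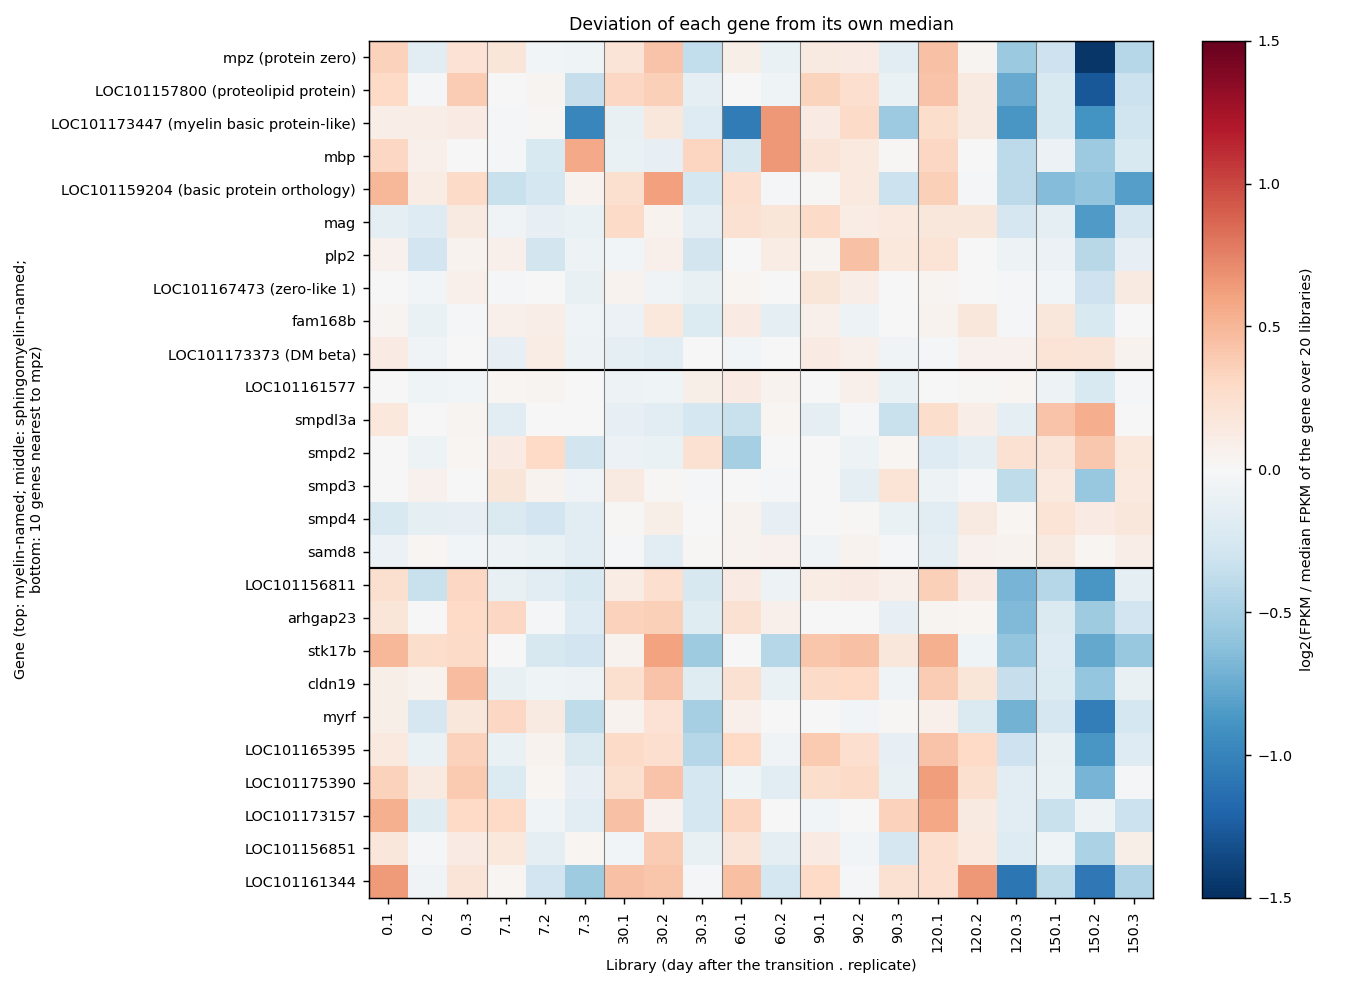
Log2 ratio of FPKM to the gene's own median over 20 libraries (colour, from −1.5 to 1.5), with genes in rows (myelin-named, sphingomyelin-named, then the 10 genes nearest to mpz) and libraries in columns by day and replicate. Day 150 replicate 2 and day 120 replicate 3 are blue for mpz, LOC101157800 and most of the genes nearest to mpz. Those nearest genes were picked by likeness to mpz over these same libraries. Among the sphingomyelin-named genes only smpd3 is clearly blue in both libraries.

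Other genes of myelin and of the oligodendrocyte lineage also gave no calls between days. The list of myelin structure and the paranode had 19 tested genes, with the members mag and mbp left out. Of these, limma called 0 over the 7 days, with 2 at an unadjusted p under 0.05, where 13.1% of all genes tested were. On day 150 limma again called 0, with 5 of 19 unadjusted against 9.61% of all genes tested. Of the 19, 13 had a negative change, against 43.65% of all genes tested, and the median was −0.14. The gene ugt8, whose enzyme makes the myelin lipid galactosylceramide, stood at 9.293 FPKM on day 0 and 5.667 FPKM on day 150 (log2 change −0.65), and mal2 at 4.09 and 2.373 FPKM (−0.58). Both were lowest in day 150 replicate 2. The gene omg, for oligodendrocyte-myelin glycoprotein, had a change of −0.29 and pmp22, for peripheral myelin protein 22, one of −0.15. The 14 regulators of the lineage had 0 called on day 150, with 11 negative and a median of −0.09. Among them, myrf was at −0.48, sox8 at −0.01 and sox5 at 0.15, and myrf is also among the genes nearest to mpz. The 8 precursor markers had 0 called, with 6 negative and a median of −0.16. The gene pdgfra, for the receptor that marks precursors, was at −0.31 and pcdh15 at 0.09.

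The summed level of the myelin structure list was related to mpz across libraries, with r = 0.743 and rho = 0.776 (permutation adjusted p = 0.00036 and 0.0006), and r = 0.611 without the 2 farthest libraries. The sum had a median of 654 FPKM and rested largely on cd59, with a mean of 339.1 FPKM, and cldn19, with 99.91 FPKM. The other genes of the list had means of at most 35.43 FPKM, and cldn19 is among the genes nearest to mpz. The precursor list had r = 0.743 and rho = 0.756 (permutation adjusted p = 0.00054 and 0.00096), and r = 0.587 without those libraries. For the regulators r was 0.565 and rho 0.375 (permutation adjusted p = 0.0229 and 0.21), and r was 0.218 without them. Of the retina and optic nerve list only rpe65 was tested, at 1.706 FPKM, with r = 0.614 and rho = 0.575 (permutation adjusted p = 0.0177 and 0.027). The lists of cholesterol synthesis, Schwann cells, astrocytes and radial glia, microglia and leukocytes, neurons, vessels and meninges had adjusted p from 0.103 to 0.98 by Pearson and from 0.21 to 0.997 by Spearman. On day 150 limma called 0 genes in each of these 7 lists, with medians from −0.51 in the 4 microglia and leukocyte genes to 0.10 in the 17 cholesterol genes. Of the 7 Schwann cell markers, s100b, which the astrocyte list also holds, had a mean of 304.9 FPKM, l1cam 68.17, pou3f1 12.39 and sox10 3.636 FPKM. The markers foxd3 and erbb3 had means of 0.046 and 0.0325 FPKM, and egr2, which in mammals drives peripheral myelination, one of 1.085 FPKM.

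The 6 sphingomyelin-named genes have descriptions that name enzymes of sphingomyelin or their relatives, which does not settle what each enzyme acts on. LOC101161577, matched to phosphatidylserine synthase 1 and sphingomyelin phosphodiesterase 5, had a mean of 58.93 FPKM, smpdl3a 30.54, smpd2 26, smpd3 12.56, smpd4 11.92 and samd8, a relative of sphingomyelin synthase, 11.1 FPKM. Their median SD over the libraries was 0.149 on the log2 scale, against 0.273 for the myelin-named genes. The gene smpd4, for a neutral sphingomyelinase, stood at 10.42, 10.97 and 11.2 FPKM on day 0 and at 14.03, 13.21 and 13.64 FPKM on day 150, without overlap. The difference on the log2 scale was 0.30 ± 0.07 (standard error, limma adjusted p = 0.220), and its slope was 0.05 per 30 days (limma adjusted p = 0.199). In replicate 2 of day 150, smpd2 and smpdl3a were the highest of all 20 libraries, at 33.83 and 44.19 FPKM. The correlation with mpz was lowest for samd8, with rho = −0.626, a description over 20 libraries.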

How the data were processed

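Per the labels' protocols, RNA was treated with DNase, selected with poly-T beads and sequenced as strand-specific libraries. The values are FPKM, which the authors deposited as a single table, per the file headers. The submitters' processing notes list Bowtie2 (2.2.5) and RSEM (1.2.12), whereas the genome build is not given in the sources used here. Values have 2 decimals and whole reads were not recovered. Of 22615 identifiers, 21722 matched the RefSeq table of assembly ASM223467v1, used for names and neighbours only.

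The members and the gene lists were chosen with earlier results of these data known. Values were transformed to log2(FPKM + 1), which understates changes of low genes, and genes whose mean reached 1 FPKM were tested with limma (3.58.1; R 4.3.3). One model with a mean per day, 13 residual degrees of freedom and a prior variance that follows the level gave F tests and day contrasts, two-sided. A second gave the slope. Benjamini-Hochberg adjustment ran over all genes tested, with a threshold of 0.05. The tests were also tried on simulated data, and the outcome is not given here. Correlations on the same scale had permutation p-values from 100000 resamples, two-sided, adjusted over 45 pairs or over 12 lists. Groups were the labelled days, and replicates were numbered in accession order, which only names them. Named genes were all members, up to 4 tested genes per list by F test p, and the 10 nearest to mpz. Alternatives were another pseudocount, filters, scalings, priors, weights, a slope from day 7 and each library left out. Python (3.11.15), pandas (2.3.3), numpy (2.4.6) and matplotlib (3.10.9) were used.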

Additional observations from a re-analysis of the deposited data

How the results depend on the processing

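In 27 alternative settings of the tests, and for the slope also from day 7 on, limma called 0 of the 16 members in each. Over the 27 settings, the smallest adjusted p of any member was 0.124, in limma's F test over days 7 to 150. This value came without day 150 replicate 3. The smallest was 0.143 for the F test over 7 days and 0.149 for day 150. For mpz the adjusted p ran from 0.381 to 0.813 over 7 days and from 0.278 to 0.806 on day 150. Counts and medians without day 150 replicate 2, and the pituitary sum without pomc, were added after seeing the data and stand beside the results. The number of pairs past both correlation thresholds, 10 with all libraries, ran from 4 to 11 with 1 library left out. It was 5 when day 30 replicate 3 was left out, 5 for day 120 replicate 3, 5 for day 150 replicate 1 and 4 for day 150 replicate 2. It was 10 with a pseudocount of 0.1, 11 with libraries rescaled to the same total and 12 after quantile normalization. The cause of these shifts was not tested. Over all genes, calls over 7 days ran from 7 to 37 around the 15 reported, calls over days 7 to 150 from 9 to 46, slope calls from 0 to 7, and calls on day 7 from 1 to 15 around 10. They ran from 0 to 5 on day 30, from 1 to 26 on day 60, from 0 to 60 on day 90, from 0 to 10 on day 120 and from 0 to 1 on day 150. No paired analysis was possible because the sample labels carry no replicate number that days share. The number of libraries limits the precision, and depth is unknown.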
